A study of Mus musculus with 9 samples.

Results

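The surface molecules described here are those by which mouse blood stem and progenitor cells are sorted and subdivided: Kit, Ly6a (Sca-1), Cd34, Flt3, the SLAM receptors Slamf1 (CD150), Cd48 and Cd244a, the pan-leukocyte phosphatase Ptprc (CD45) and Thy1. They are 9 of the 18193 genes that the array platform's annotation names, and each was represented by every probe set that this annotation gives to that gene alone. Such probe sets were found for 8 of the 9 genes, 13 in all, and 10 of the 13, from 7 genes, were bright enough to be tested. Ly6a had no probe set named for it alone, so its RNA was not analysed here, although its protein is one of the 3 criteria of the sorting gate. The values are log2 array intensities, so a difference of 1 is a doubling, and levels were compared between arrays within a probe set and never between probe sets.

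LSK cells are marrow cells that lack the antigens of mature lineages and carry Sca-1 and KIT, and they hold both stem cells and multipotent progenitors. Within that gate FLT3 and CD34 appear on progenitors as the most immature cells are left behind, while the SLAM receptors divide the gate further, CD150 being found on stem cells and CD48 on most other progenitors. KIT and FLT3 are receptor tyrosine kinases for stem cell factor and FLT3 ligand, which support the survival and growth of these cells.

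The series compared LSK cells of C57BL/6 mice in 3 groups of 3 arrays, each array holding marrow pooled from 2 to 5 mice and sorted 8 weeks after transplantation. Donor marrow cells without lineage antigens were cultured with cytokines that included stem cell factor, the ligand of KIT, transduced with retroviral vectors, and injected into C57BL/6 hosts irradiated with 10 Gy. The control group came from mice transplanted with wild type LSK cells. The other groups came from mice given cells transduced with the transgene labelled dnMPL: LSK cells without the GFP marker (GFP-negative) and LSK cells with it (GFP-positive), the label for cells that carry the transgene. The labels name no vector for the controls, no mark that separates donor from surviving host cells of the same strain, and no link between dnMPL samples that share a number. They also describe the transplanted cells in one place as LSK cells and in another as lineage-negative cells. They do not say that samples of a group came from separate transplantations, so p-values measure the spread between these samples, which may in part be technical.

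The arrays had medians between 4.52 and 4.64 and correlated with each other at 0.886 to 0.970 over all probe sets. The arrays control 3 and GFP-positive 2 stood apart in RNA quality, as the 3′ end of Gapdh read 3.87 and 3.22 above its 5′ end there, and 2.47 to 2.89 above it on 7 further arrays. In a fit that weights arrays by their spread they received weights of 0.383 and 0.40, against 0.927 to 2.03 for the others. For Kit, Cd34, Slamf1, Cd48 and Cd244a either array was the highest or the lowest of a probe set. Differences without that array are given there as well, though not for every comparison.

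None of the 7 tested genes differed between the groups beyond the spread of the replicates. In limma fits across 27022 probe sets, 0 of the 10 tested member sets had an adjusted p under 0.05 in any of the 3 comparisons, and 0% of all tested sets did so. The count of member sets with an unadjusted p under 0.05 was also 0 in each comparison. Among all tested sets that share was 5.88% (1588 sets) for GFP-positive against control, 5.31% (1434 sets) for GFP-negative against control and 2.71% (733 sets) for GFP-positive against GFP-negative cells. The smallest unadjusted p of a member set in these comparisons was 0.0867 (Kit), 0.1004 (Cd244a) and 0.0838 (Cd244a).

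Taking the brightest set of each of the 7 tested genes, 5 were higher and 2 lower in GFP-positive cells than in controls, with a median difference of 0.03 against -0.016 over all tested sets. For GFP-negative cells against controls 3 were higher and 4 lower, with a median of -0.03 against -0.0098. For GFP-positive against GFP-negative cells 5 were higher and 2 lower, with a median of 0.09 against 0.0024. The median absolute difference of these sets was 0.11, 0.10 and 0.26 in the 3 comparisons, against 0.30, 0.31 and 0.27 over all tested sets. The 95% intervals of these 7 sets reached between 0.62 (Flt3) and 1.37 (Cd48) to either side of the estimate. Those of Flt3 held neither a doubling nor a halving, and those of Cd48 held at least one of them in each comparison. Because each array is a pool of cells, fewer cells of one kind and less RNA per cell cannot be told apart.

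**Figure D1:**
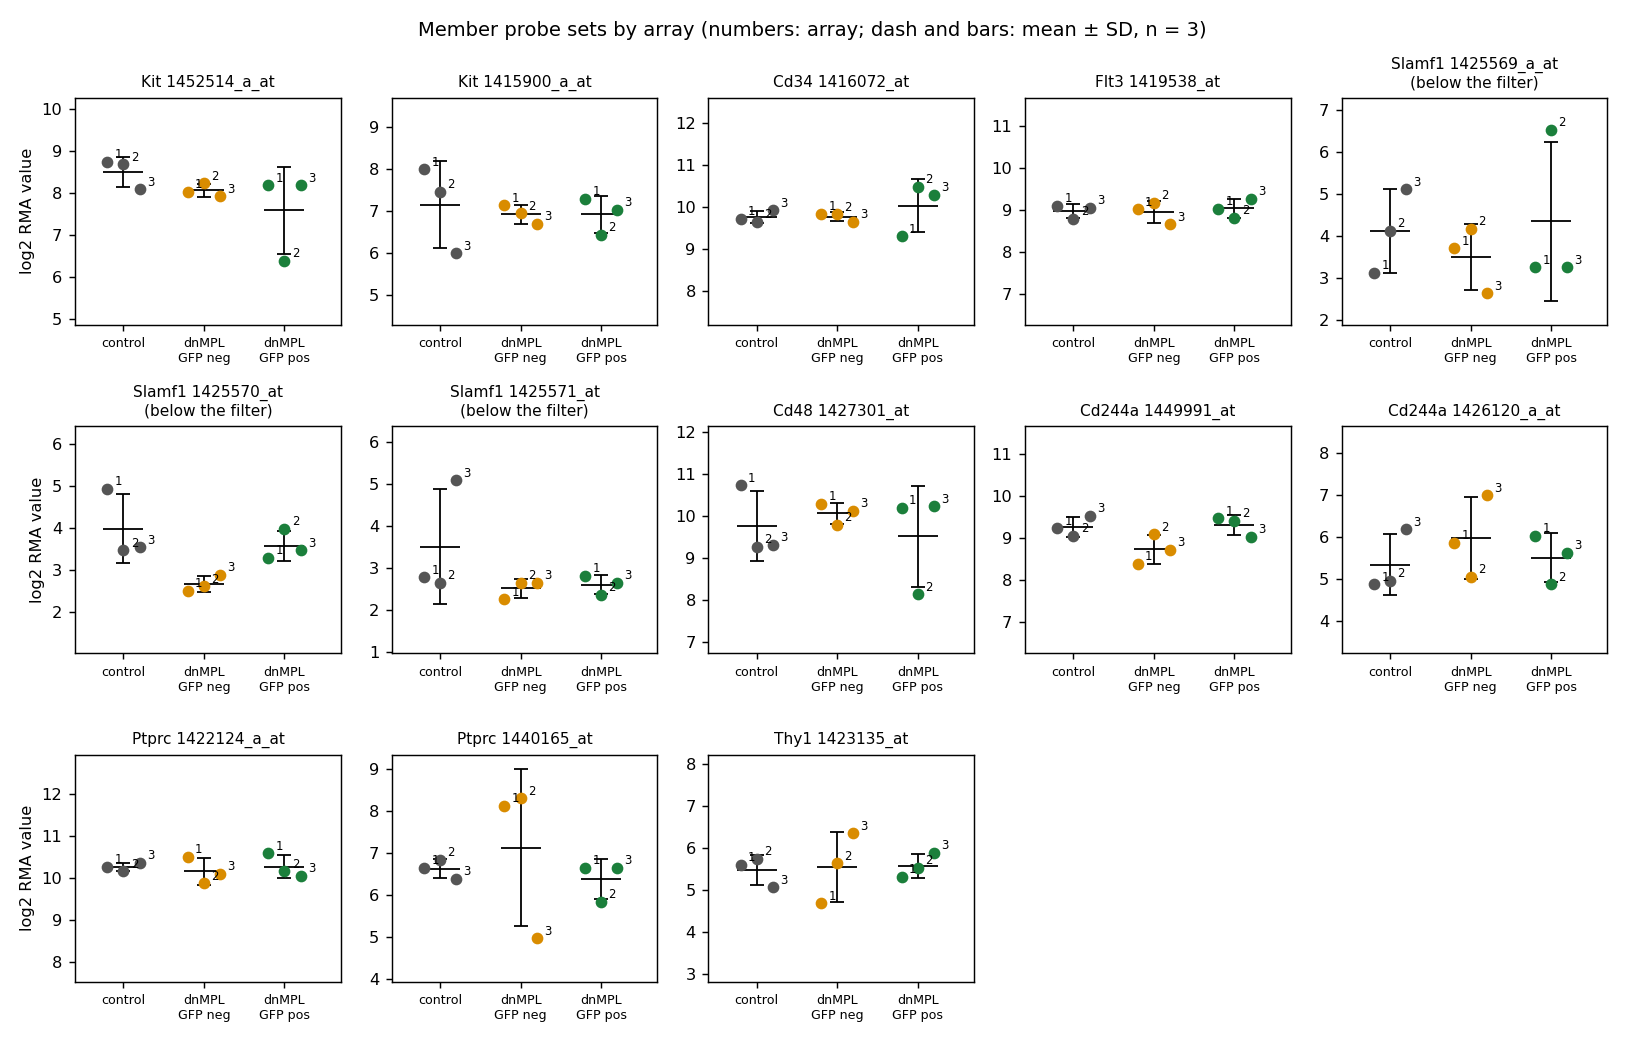
Log2 intensity (vertical axis) of the 13 member probe sets on each of the 9 arrays, with points for the arrays numbered by replicate, grouped by control, GFP-negative and GFP-positive cells, and bars for the mean and SD of 3 arrays. The array GFP-positive 2 is the low point for the brighter Kit set (6.38) and for Cd48 (8.12), whereas the Flt3 values of all 9 arrays lie within 0.607 of each other.

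Kit, the receptor by which the cells were gated, was measured by 2 probe sets. On the brighter one the control arrays read 8.73, 8.67 and 8.08, the GFP-negative arrays 8.02, 8.22 and 7.92, and the GFP-positive arrays 8.17, 6.38 and 8.17. The groups overlapped, and the widest departure was that of the array GFP-positive 2, whose 6.38 lay below the range of 7.92 to 8.73 on the other 8 arrays. The group means were 8.49 ± 0.36 (SD, n = 3) in control, 8.05 ± 0.15 in GFP-negative and 7.58 ± 1.04 in GFP-positive cells. GFP-positive minus control was -0.92 ± 0.48 (SE), with a 95% interval of -1.99 to 0.16 and a limma adjusted p of 0.860. Without the array GFP-positive 2 the same difference was -0.32. GFP-negative minus control was -0.44 ± 0.48 (interval -1.52 to 0.64).

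The dimmer Kit set read 8.00, 7.46 and 6.00 in control, 7.14, 6.95 and 6.69 in GFP-negative, and 7.30, 6.43 and 7.03 in GFP-positive cells. Here the low value of the controls was that of the array control 3, and both dnMPL groups lay inside the range of the controls. Its means were 7.15 ± 1.04, 6.93 ± 0.22 and 6.92 ± 0.45, and the differences from control were -0.23 ± 0.49 (GFP-positive) and -0.22 ± 0.49 (GFP-negative). Without control 3 these became -0.81 and -0.80. With control 3 and GFP-positive 2 both left out, GFP-negative minus control was -0.65 on the brighter set and -0.80 on the other. The limma p-values were 0.033 and 0.030 unadjusted and 0.606 and 0.591 adjusted. GFP-positive minus control was then -0.52 and -0.56, with limma adjusted p-values of 0.883 and 0.898. Between the dnMPL fractions the brighter set differed by -0.48 ± 0.48 (interval -1.55 to 0.60), and by 0.12 without GFP-positive 2, whereas the other set differed by -0.0051 ± 0.49. On the brighter set the sign of this difference depended on GFP-positive 2, and on the dimmer set, where it was near 0, the sign also turned when GFP-negative 1 or GFP-negative 2 was left out (0.10 and 0.0050).

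Flt3, the receptor kinase found on multipotent and lymphoid-primed progenitors, had the most even levels of the members. Its probe set read 9.10, 8.79 and 9.07 in control, 9.02, 9.18 and 8.67 in GFP-negative, and 9.03, 8.83 and 9.28 in GFP-positive cells. All groups overlapped, and the spread within groups (SD 0.222) was at the 6.32th percentile of all tested sets. The differences were 0.06 for GFP-positive minus control (95% interval -0.56 to 0.68), -0.03 for GFP-negative minus control (-0.65 to 0.59) and 0.09 between the dnMPL fractions (-0.53 to 0.71), each with an SE of 0.28. On the linear scale the first of these intervals runs from 0.68 to 1.60 times the control level.

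Cd34, a sialomucin that within the LSK gate marks cells past the most immature stage, read 9.72, 9.66 and 9.92 in control and 9.84, 9.82 and 9.65 in GFP-negative cells. The GFP-positive arrays read 9.31, 10.49 and 10.29, so they held both the lowest value and the highest. The means were 9.76 ± 0.14, 9.77 ± 0.11 and 10.03 ± 0.63 (SD, n = 3). GFP-negative minus control was 0.0047 ± 0.34 (SE; interval -0.76 to 0.77). GFP-positive cells differed by 0.26 ± 0.34 from control (-0.50 to 1.03) and by 0.26 ± 0.34 from GFP-negative cells, with limma adjusted p-values of 0.981 and 0.9999. These differences rested on single arrays, being 0.035 and 0.030 without GFP-positive 2 and 0.62 in both comparisons without GFP-positive 1.

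Slamf1, which encodes CD150, the positive marker of the SLAM scheme, was near the floor of the array. All 3 of its probe sets had means under 4.03, the 40th percentile of all probe sets, below which no set was tested, and only levels are given. On the brightest of them the arrays read 3.13, 4.12 and 5.11 in control, 3.71, 4.17 and 2.64 in GFP-negative, and 3.26, 6.54 and 3.25 in GFP-positive cells. The value of 6.54 belongs to GFP-positive 2, the array on which Cd48 and the brighter Kit set were lowest. GFP-positive minus control was 0.23 with this array and -0.86 without it.

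On the next Slamf1 set the GFP-negative arrays (2.50, 2.61 and 2.88) all lay below the controls (4.94, 3.47 and 3.55) and below the GFP-positive arrays (3.30, 3.98 and 3.47). It was the only member set whose groups did not overlap: 1 of 13 sets for GFP-negative against control, where 9.84% of all probe sets did so, and 1 of 13 between the dnMPL fractions, where 6.11% did so. For GFP-positive against control the count was 0 of 13, against 6.88% of all probe sets. With every probe set fitted, the GFP-negative difference from control of -1.32 had a limma p of 0.0096 unadjusted and 0.901 adjusted. On the third set 8 of 9 arrays read between 2.26 and 2.81 and the array control 3 read 5.09. Leaving out control 3 moved its difference from control from -0.90 to -0.11 for GFP-positive and from -0.99 to -0.20 for GFP-negative cells. The GFP-negative mean was the lowest of the groups on all 3 sets (3.51, 2.66 and 2.52), while the highest was that of the GFP-positive cells on the brightest set (4.35) and that of the controls on the others (3.99 and 3.51). On the brightest set this order rested on GFP-positive 2, as the other GFP-positive arrays read 3.26 and 3.25, below the GFP-negative mean.

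Cd48, the SLAM receptor whose absence marks stem cells within the gate, read 10.72, 9.25 and 9.30 in control, 10.28, 9.78 and 10.11 in GFP-negative, and 10.19, 8.12 and 10.22 in GFP-positive cells. As for the brighter Kit set, GFP-positive 2 was the lowest array, with 8.12 against 9.25 to 10.72 on the other 8. The controls were themselves uneven, since control 1 was the highest of the 9 arrays and the other control arrays lay below every GFP-negative array. GFP-positive minus control was -0.25 ± 0.61 (SE; 95% interval -1.61 to 1.12) and GFP-positive minus GFP-negative was -0.54 ± 0.61 (-1.91 to 0.82), with limma adjusted p-values of 0.996 and 0.9999. Without GFP-positive 2 both changed sign, to 0.45 and 0.15. GFP-negative minus control was 0.30 ± 0.61 (-1.07 to 1.67), and it was 0.78 without control 1 and 0.045 without control 2.

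Cd244a, which encodes 2B4, the receptor that binds CD48, was measured by 2 probe sets. On the brighter one the arrays read 9.23, 9.05 and 9.52 in control, 8.39, 9.08 and 8.71 in GFP-negative, and 9.47, 9.41 and 9.03 in GFP-positive cells. The GFP-negative arrays were lower except for 1, which overlapped both other groups. GFP-negative minus control was -0.54 ± 0.30 (SE; 95% interval -1.21 to 0.13; limma adjusted p = 0.928), and GFP-positive minus GFP-negative was 0.57 ± 0.30 (-0.09 to 1.24; limma adjusted p = 0.9999). GFP-positive cells were at 9.30 ± 0.24 (SD, n = 3) and controls at 9.27 ± 0.24, a difference of 0.03 (-0.63 to 0.70).

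The dimmer Cd244a set went the other way. It read 4.87, 4.95 and 6.18 in control, 5.85, 5.04 and 6.99 in GFP-negative, and 6.03, 4.86 and 5.61 in GFP-positive cells. GFP-negative minus control was 0.63 ± 0.56 and GFP-positive minus GFP-negative was -0.46 ± 0.56, both opposite in sign to the brighter set. Without control 3, GFP-negative minus control was 1.05 on this set and -0.42 on the brighter one, and without GFP-positive 2 the difference between the fractions was -0.14 and 0.52. No difference passed the test, and the Cd244a sets gave no common direction for GFP-negative cells.

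**Figure D2:**
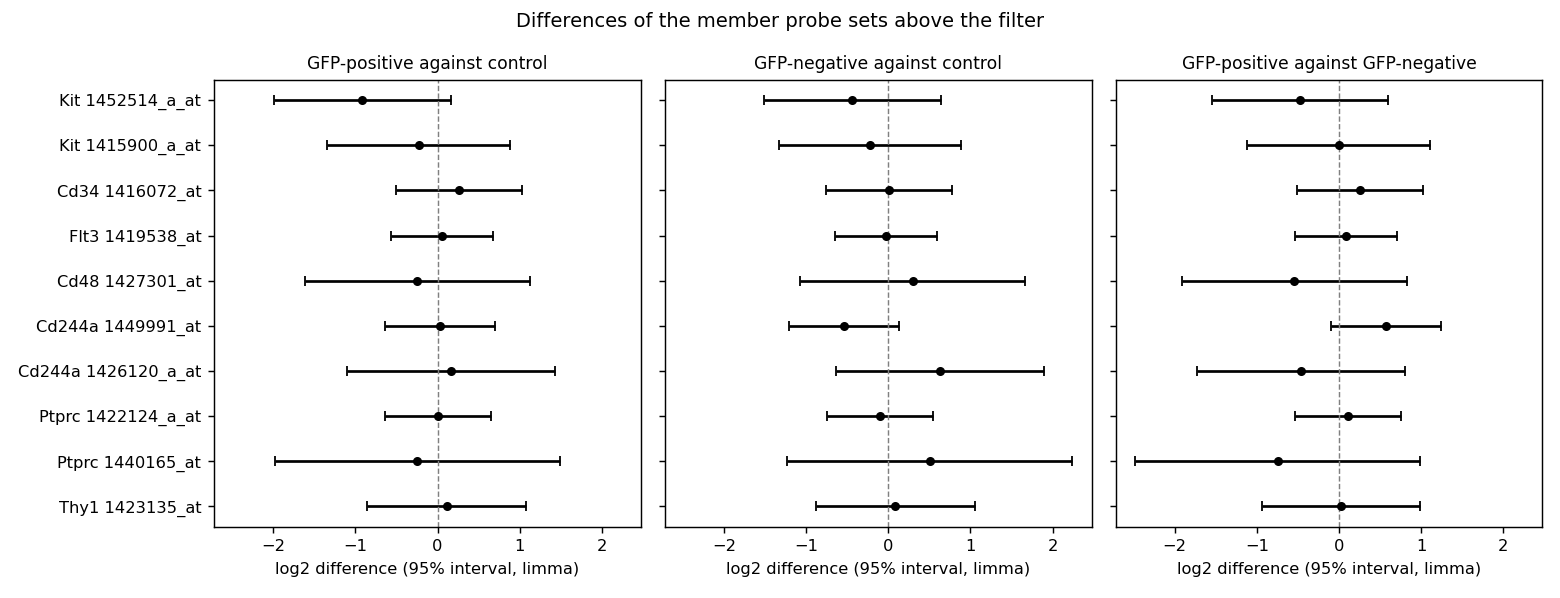
Log2 difference (horizontal axis) of each tested member probe set in the 3 comparisons, with points for the limma estimate and bars for its 95% interval, the brighter set of a gene above the dimmer one. Every interval includes 0, and Flt3 has the narrowest interval among the brightest sets of the genes while Cd48 has the widest.

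Ptprc encodes CD45, the membrane phosphatase of all nucleated blood cells, and one of its splice forms, B220, was a target of the antibodies used to remove lineage-positive donor cells. Its brighter set read 10.27, 10.17 and 10.36 in control, 10.52, 9.89 and 10.11 in GFP-negative, and 10.59, 10.17 and 10.07 in GFP-positive cells. The groups overlapped throughout, and the means were 10.27 ± 0.10, 10.17 ± 0.32 and 10.28 ± 0.28 (SD, n = 3). The differences were 0.0084 for GFP-positive minus control (95% interval -0.64 to 0.65), -0.10 for GFP-negative minus control (-0.74 to 0.54) and 0.11 between the dnMPL fractions (-0.54 to 0.75).

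The dimmer Ptprc set was among the most variable, with a spread within groups at the 92.7th percentile. It read 6.66, 6.85 and 6.40 in control, 8.13, 8.32 and 4.98 in GFP-negative, and 6.66, 5.85 and 6.66 in GFP-positive cells. The GFP-negative group held both the highest arrays and the lowest. GFP-negative minus control was 0.50 ± 0.77, and without the array GFP-negative 3 it was 1.59, with an unadjusted p of 0.0023 and a limma adjusted p of 0.894. GFP-positive minus GFP-negative was -0.75 ± 0.77, and -1.83 without that array. On the brighter set the GFP-negative arrays stayed between 9.89 and 10.52, so the 2 Ptprc sets did not give the same picture of these cells.

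Thy1, a GPI-anchored protein present at low level on mouse stem cells of some strains and abundant on T cells, read 5.59, 5.73 and 5.06 in control, 4.68, 5.63 and 6.34 in GFP-negative, and 5.31, 5.52 and 5.88 in GFP-positive cells. The GFP-negative arrays spanned the values of both other groups. The differences were 0.11 for GFP-positive minus control (95% interval -0.86 to 1.07), 0.09 for GFP-negative minus control and 0.02 between the dnMPL fractions, each with an SE of 0.43.

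Across the 10 tested member sets, the array GFP-positive 2 was the lowest in 3 and the highest in 1. Control 1 was the highest in 3 sets, and GFP-negative 3 was the lowest in 2 and the highest in 2. No array was the lowest or the highest in more than 3 of the 10 sets. The genes whose pattern over the 9 arrays lay nearest to a member were sought for the 3 members whose brightest set had the widest range, among 12398 genes, by the root mean square difference of centred values. For Kit (range 2.35) they were Plcg2 (0.149) and Ppwd1 (0.186), both also lowest on GFP-positive 2, at 7.53 and 5.16. For Cd48 (range 2.60) they were Dhx40 (0.229) and Pnpla8 (0.249), again both lowest on GFP-positive 2, at 4.94 and 5.01. For Slamf1 (range 3.89), whose set was below the filter, they were F11r (0.484) and E130311K13Rik (0.489). Like that Slamf1 set, both were highest on GFP-positive 2, at 6.64 and 6.41. All these matches therefore follow the extreme value of 1 array that stood apart in RNA quality.

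The SLAM receptors lie in one cluster on mouse chromosome 1, with 1 other protein-coding gene among them, in the order Cd244a, Ly9, Slamf7, Cd48, Slamf1, Cd84 and Slamf6 in the RefSeq annotation of GRCm38.p6, which was used for names and order only. Of these 7 genes 6 were above the filter, Slamf1 being the exception. The signs of the differences were mixed along the cluster, and none passed the test. Ly9 was at 7.16 ± 0.46 (SD, n = 3) in control, 6.40 ± 0.51 in GFP-negative and 6.62 in GFP-positive cells. Slamf7, a receptor of mature immune cells, was at 3.93 ± 0.59, 4.63 ± 0.83 and 5.38 ± 1.04. Its control mean lay under the filter value of 4.03, so the set passed the filter through the dnMPL arrays. GFP-positive minus control was 1.45 ± 0.60 (SE) for Slamf7 (limma adjusted p = 0.828), and GFP-negative minus control was -0.76 ± 0.37 for Ly9 (limma adjusted p = 0.917). Cd84 (7.09, 7.16 and 7.60) and Slamf6 (4.51, 4.56 and 4.69) had means that were closer together.

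**Figure D3:**
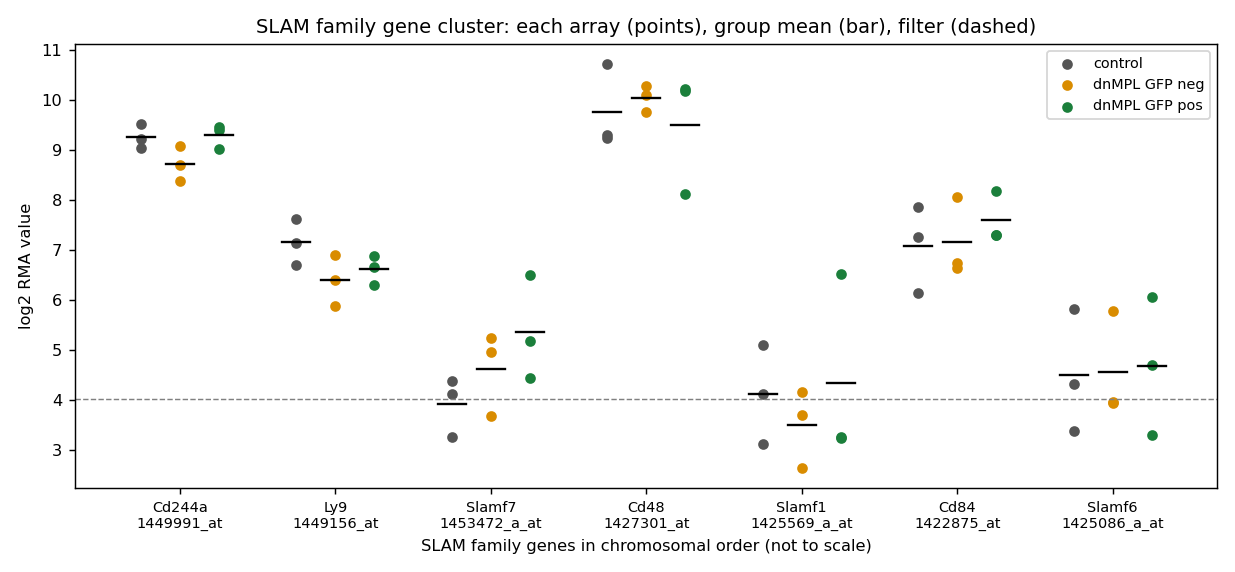
Log2 intensity (vertical axis) of the SLAM receptor genes in their order along mouse chromosome 1 (horizontal axis), one probe set per gene, with points for the 9 arrays short bars for the group means of 3 arrays and a dashed line for the filter at 4.03. Levels can be compared within a gene only. The GFP-positive mean is the highest for Slamf7 (5.38), Slamf1, Cd84, Slamf6 and, by little, Cd244a (9.30 against 9.27 in control). It is not the highest for Ly9 (6.62 against 7.16 in control) or Cd48.

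Relatives and signalling partners of the members were examined as lists, and 0 genes of any list rose or fell past the limma threshold in any comparison. Of 10 SLAM family and SAP adaptor genes besides the members, 8 had a named probe set and 5 were tested. In GFP-positive cells 4 of the 5 were higher and 1 lower than in control, with a median of 0.51, and 5 of 5 were higher than in GFP-negative cells, with a median of 0.44. GFP-negative cells had 4 higher and 1 lower than control, with a median of 0.06. Cd2, a related adhesion receptor of lymphocytes, was at 5.03 ± 0.54 (SD, n = 3) in GFP-positive and 4.11 ± 0.39 in control cells, a difference of 0.92 ± 0.39 (SE; limma adjusted p = 0.828). Between the fractions Cd2 differed by 0.85 and Slamf7 by 0.75. Both were near the filter value of 4.03, Cd2 in control and GFP-negative cells (4.11 and 4.18) and Slamf7 in control cells (3.93).

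For the LY6 family, to which Sca-1 belongs, 9 of 12 other genes had a named set and 5 were tested. The median differences were -0.06 (2 higher, 3 lower) for GFP-positive against control, 0.07 (3 higher, 2 lower) for GFP-negative against control and 0.23 (4 higher, 1 lower) between the fractions. Ly6e was bright and similar, at 10.30 ± 0.64 (SD, n = 3) in control and 10.59 ± 0.30 in GFP-positive cells. Cd59a, which encodes an inhibitor of the complement attack complex, was at 5.57 ± 0.16, 5.85 ± 0.31 and 5.05 ± 0.44 in control, GFP-negative and GFP-positive cells, and GFP-positive minus GFP-negative was -0.80 ± 0.32 (SE; limma adjusted p = 0.9999). Ly6d, a marker of lymphoid progenitors, differed by -0.40 ± 0.31 between GFP-negative and control cells. These relatives are no stand-in for Ly6a itself.

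Downstream of KIT and FLT3, 14 of 16 listed ligands and signalling genes had a named set and 13 were tested, the stem cell factor gene Kitl lying below the filter. The median differences were 0.08 (9 higher, 4 lower) for GFP-positive against control, 0.10 (10 higher, 3 lower) for GFP-negative against control and -0.13 (4 higher, 9 lower) between the fractions. Ptpn6, the phosphatase SHP-1 that dampens KIT signalling, was at 8.80 ± 0.37 (SD, n = 3) in GFP-positive, 8.32 ± 0.27 in GFP-negative and 8.30 ± 0.12 in control cells. Pik3r1, the regulatory subunit of PI3 kinase, was at 9.01 ± 0.45 in GFP-positive and 9.56 ± 0.31 in control cells. The adaptor Sh2b3 (LNK), which restrains KIT signalling, was at 7.82 ± 0.96 in GFP-negative and 6.44 ± 0.83 in control cells, a difference of 1.39 ± 0.54 (SE; limma adjusted p = 0.913). Csf1r, the monocyte receptor kinase of the same family as KIT, differed by 3.16 ± 1.60 in the same comparison, and Socs6, a negative regulator of KIT, by -0.77 ± 0.49 between the fractions.

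CD45 acts on the kinases of the Src family. Of the 9 listed partners of CD45 and Src kinases 7 had a named set and all 7 were tested. Their median differences were -0.14 (3 higher, 4 lower), 0.05 (4 higher, 3 lower) and -0.31 (1 higher, 6 lower) in the same order of comparisons. Csk, the kinase that opposes CD45, was at 7.44 ± 0.08 (SD, n = 3) in GFP-positive, 7.08 ± 0.48 in GFP-negative and 6.82 ± 0.22 in control cells. Yes1 differed by -0.93 ± 0.57 (SE) between GFP-positive and control cells. Fgr, a kinase of myeloid cells, differed by 1.67 ± 1.10 between GFP-negative and control cells, and the CD45-associated protein gene Ptprcap by -0.31 ± 0.28 between the fractions. For CD34, its relative Podxl was the only 1 of 3 listed genes above the filter, at 5.52 ± 0.30 (SD, n = 3) in control, 4.67 ± 0.30 in GFP-negative and 4.70 ± 0.89 in GFP-positive cells.

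Other surface markers that subdivide the LSK gate included larger differences than the members, though none passed the test. All 10 listed genes were tested, with 3 higher and 7 lower than control in GFP-positive cells (median -0.31) and again in GFP-negative cells (median -0.42), 2 comparisons that share the control arrays. Procr, the stem cell marker EPCR, was at 8.04 ± 0.58 (SD, n = 3) in control, 5.64 ± 0.26 in GFP-negative and 6.53 ± 0.48 in GFP-positive cells. Its differences from control were -2.40 ± 0.38 (SE; limma adjusted p = 0.60) and -1.50 ± 0.38 (limma adjusted p = 0.604). Cd27 was at 10.61 ± 0.56 (SD, n = 3) in control and 9.55 ± 0.56 in GFP-positive cells. Esam, an adhesion molecule of stem cells, was at 5.99 ± 0.34 in control, 4.68 ± 0.69 in GFP-negative and 5.57 ± 0.06 in GFP-positive cells. Tek, the receptor TIE2, which is named here with its values known, differed from control by -2.68 ± 1.06 (SE) in GFP-negative and -1.76 ± 1.06 in GFP-positive cells. It was at 5.99 ± 0.85 (SD, n = 3) in control, 3.32 ± 1.52 in GFP-negative and 4.23 ± 2.12 in GFP-positive cells. The GFP-negative mean of Tek lay under the filter value of 4.03. Procr, Esam and Tek were chosen by the study on these samples, so their direction is not independent evidence.

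**Figure D4:**
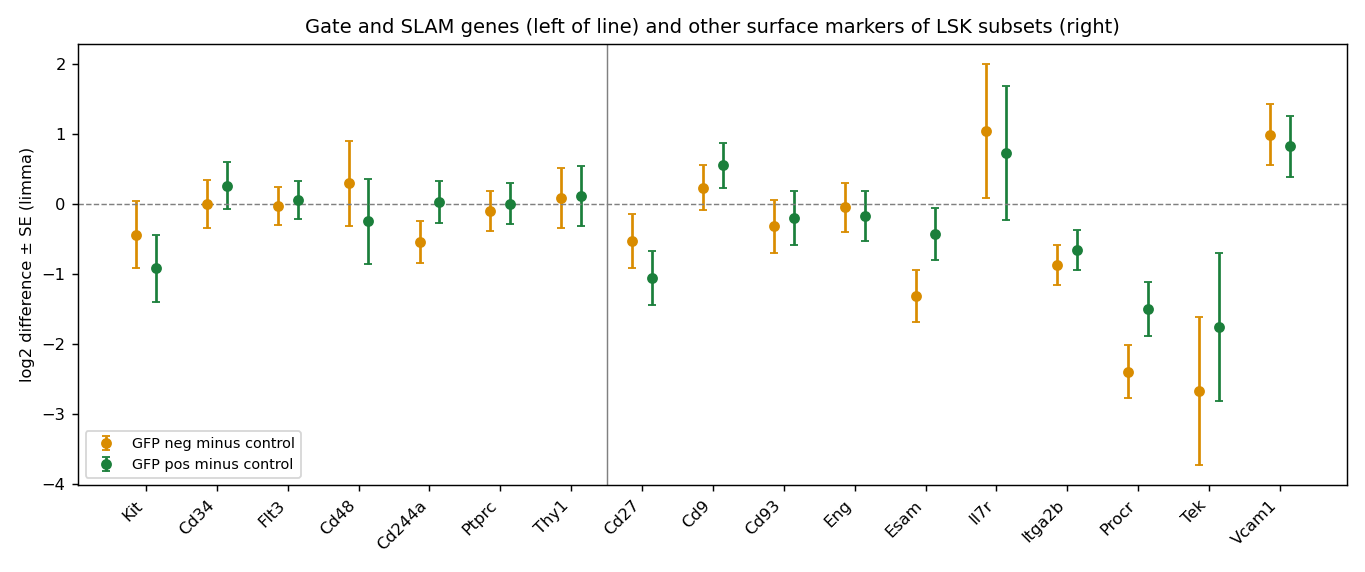
Log2 difference from control (vertical axis) for the 7 tested gate and SLAM genes, left of the line, and for 10 other surface markers of LSK subsets, right of it, in GFP-negative and GFP-positive cells, with points for the limma estimate and bars for its SE to either side. The estimates for Procr (-2.40 and -1.50) lie lower than those of the 7 tested gate and SLAM genes shown. The lowest estimate among these 7 is that of Kit in GFP-positive cells (-0.92). Slamf1, which was not tested, is not shown.

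Of the genes on the lists of cell type markers, 0 passed the limma threshold. The mean levels of some lists nevertheless did not overlap between control arrays and the arrays of either dnMPL group. Among single probe sets, 6.88% did not overlap between GFP-positive and control arrays, and 9.84% between GFP-negative and control arrays. No such share was computed for means of lists. The mean level of 10 granulocyte genes, all above the filter, ranged from 7.18 to 9.59 in control, 9.95 to 11.25 in GFP-negative and 10.74 to 11.66 in GFP-positive arrays. The mean of 6 erythroid genes, all above the filter, ranged from 4.73 to 5.07, 6.37 to 6.60 and 6.65 to 6.83 in the same order. The genes of this list did not all go one way. Against control, 5 were higher and 1 lower in GFP-positive cells, and 4 higher and 2 lower in GFP-negative cells. Epor was lower in both (-0.34 and -0.44). For 7 B cell genes, 6 of them above the filter, the ranges were 3.96 to 5.83, 4.96 to 6.02 and 6.42 to 6.96. For 6 monocyte and macrophage genes, 5 above the filter, they were 5.40 to 5.98, 5.94 to 7.35 and 6.02 to 7.34. Of these 5, 3 were higher and 2 lower than control in each dnMPL group.

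The mean of 7 mast cell and basophil genes (6 above the filter) ranged from 4.29 to 4.47, 4.54 to 5.76 and 5.02 to 6.29, and that of 7 T and NK cell genes (3 above the filter) from 3.76 to 3.87, 4.04 to 4.33 and 4.16 to 4.66. Megakaryocyte genes (4 of 6 above the filter) ranged from 5.16 to 5.90, 5.09 to 5.67 and 4.67 to 5.10, and endothelial and stromal genes (5 of 8) from 4.21 to 4.498, 4.26 to 4.78 and 4.28 to 5.10. The 5 LSK markers with a named set, Kit and Cd34 among them, had mean levels of 8.74 to 9.00 in control, 8.45 to 8.68 in GFP-negative and 7.43 to 8.38 in GFP-positive arrays. The value of 7.43 was that of GFP-positive 2. In each dnMPL group 4 of the 5 were lower than control and 1, Cd34, was higher. Of the lineage antibody targets, Cd3e was below the filter and Itgam (CD11b) was at 4.09 ± 0.97 (SD, n = 3) in control, 4.09 ± 0.48 in GFP-negative and 4.72 ± 0.98 in GFP-positive cells. The part of the listed cell types in the levels of Kit, Cd48, Ptprc and the other members was not tested.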

How the data were processed

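Amplified, biotin-labelled RNA of LSK cells was read on mouse Affymetrix arrays, with 1 array for each of 9 samples. The values are log2 intensities that the authors deposited after RMA, per the submitters' processing notes, which give no version. RMA corrects background, quantile-normalizes the arrays and summarises a probe set by median polish, which can give several arrays the same value. The build behind the authors' annotation is not given in the sources used here.

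Of 45101 probe sets 64 were controls. Exactly 1 gene is given by the platform annotation for 34945 sets, more than 1 for 932, which stayed unnamed, and no gene for 9160. Through RefSeq gene numbers 34741 of the named sets were matched to current symbols. Sets with a mean above the 40th percentile (4.03) were tested, 27022 in all. Group means over all 9 arrays were fitted with limma 3.58.1 (R 4.3.3, lmFit and eBayes), with Benjamini-Hochberg adjustment over all tested sets in each comparison and a threshold of 0.05. With 3 arrays a group, the smallest p of an exact permutation test is 0.1. The script was tested on simulated data. A result for 1 gene is not reported here.

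The members and lists were chosen with earlier results of these data known. Named were all members, the 2 nearest patterns of the 3 members whose brightest set had the widest range, the 2 genes of each list with the smallest p in each comparison, and the genes of the SLAM cluster, of which Cd84 and Slamf6 were added with their values known. A list gene is represented by its brightest probe set. Alternatives changed the filter, the probe set of a gene, the variance prior, array weights, normalization, threshold, the arrays in the fit and the replicate number as a block, and each array was left out in turn. Figures were drawn with matplotlib 3.10.9 (Python 3.11.15).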

Additional observations from a re-analysis of the deposited data

How the results depend on the processing

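The count of probe sets past the threshold was 0 in each comparison under every alternative, with 1564, 1295 and 723 sets at an unadjusted p under 0.05 when the replicate number was a block. Whether the numbers pair the samples was not settled. Deviations of same-numbered arrays correlated at -0.252 to 0.0905 over all pairs of groups, and at 0.0905, -0.031 and -0.068 between the dnMPL fractions. The replicate block called 0 sets, as the main fit did, and with 3 arrays a group neither check can decide the question. Since each number holds 1 array of every group, the block could change no difference, only its error. Over the alternatives the smallest limma adjusted p of a member set was 0.591. Of 531 alternative values with a test, 8 had an unadjusted limma p under 0.05, the smallest being 0.00093. As to direction, 458 values of the tested member sets kept their sign and 64 changed it. For the untested Slamf1 sets 81 values kept their sign and 9 changed it. Many of the kept signs were fixed in advance. The filters, the brightest set, the variance prior, the threshold, the fit of only the groups compared and the block all repeat the main estimate. These counts therefore do not measure how stable the signs were. The cause of each change of sign was not tested beyond the arrays left out, and 3 arrays a group limit precision. With array weights GFP-positive minus control was 0.067 for Cd48 and -0.085 for Thy1, GFP-negative minus control was 0.055 for Flt3 and -0.057 for Thy1, and GFP-positive minus GFP-negative was 0.18 for the dimmer Kit set, -0.058 for Cd34, 0.041 for the dimmer Cd244a set and -0.028 for Thy1. Without control 3 and GFP-positive 2 together, the first comparison gave 0.22 for Cd48 and -0.066 for Thy1, the second 0.0096 for Flt3 and -0.12 for Thy1, and the third 0.12 and 0.24 for the Kit sets and 0.15 for Cd48. With the mean of a gene's sets, Ptprc was at -0.12, 0.20 and -0.32 in the 3 comparisons and Cd244a at 0.043 in the second. Further quantile normalization gave -0.0058 for Ptprc in the first and 0.045 for the dimmer Kit set in the third, and centring on the median gave -0.00067 for Cd34 in the second and 2.4e-05 for that Kit set in the third.

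Leaving out 1 array at a time, GFP-positive minus control ranged from 0.035 to 0.62 for Cd34, -0.81 to 0.195 for the dimmer Kit set, -0.058 to 0.17 for Flt3, -0.60 to 0.45 for Cd48, -0.075 to 0.17 for the brighter Cd244a set, -0.10 to 0.59 for the dimmer Cd244a set, -0.15 to 0.11 for the brighter Ptprc set, -0.38 to 0.024 for the dimmer Ptprc set and -0.092 to 0.24 for Thy1. GFP-negative minus control ranged from 0.045 to 0.78 for Cd48, -0.80 to 0.20 for the dimmer Kit set, -0.050 to 0.083 for Cd34, -0.14 to 0.11 for Flt3, -0.27 to 0.043 for the brighter Ptprc set, -0.084 to 1.59 for the dimmer Ptprc set and -0.31 to 0.52 for Thy1. GFP-positive minus GFP-negative ranged from -0.77 to 0.12 for the brighter Kit set, 0.030 to 0.62 for Cd34, -0.20 to 0.24 for the dimmer Kit set, -0.054 to 0.20 for Flt3, -0.90 to 0.15 for Cd48, -0.92 to 0.052 for the dimmer Cd244a set, -0.051 to 0.28 for the brighter Ptprc set and -0.41 to 0.42 for Thy1. Against control the brighter Kit set kept its sign, from -1.22 to -0.32 in GFP-positive and -0.65 to -0.32 in GFP-negative cells. The Cd244a sets kept theirs for GFP-negative minus control, from -0.72 to -0.37 on the brighter and 0.11 to 1.09 on the dimmer set.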
